A study of Mus musculus with 7 samples.

Results

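The genes described here are Il4ra and Il21r, which encode the alpha chain of the interleukin-4 (IL-4) receptor and the ligand-binding chain of the interleukin-21 (IL-21) receptor. They were taken by gene symbol, and both were found, as 2 of the 752 genes of the deposited table. RNA had been sequenced from splenic B cells of 4 wild type and 3 Batf KO mice on the C57BL/6J background. All 7 cultures had received lipopolysaccharide (LPS, a ligand of the Toll-like receptor TLR4) at 20 µg/mL and IL-4 at 20 ng/mL for 6 h, so each sample was exposed to the ligand of the Il4ra product, and no unstimulated sample was used here. BATF, the product of the targeted gene, belongs to the AP-1 family of DNA-binding leucine zipper proteins. The labels and protocols do not state the age or sex of the mice or the make-up of the Batf allele, and levels before culture were not analysed here.

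The product of Il4ra pairs with the common gamma chain, encoded by Il2rg, to form the type I IL-4 receptor of lymphocytes. Binding of IL-4 activates the kinases JAK1 and JAK3, which leads to phosphorylation of STAT6 and of the adaptor IRS2. In B cells this drives switching to IgG1 and IgE and raises surface CD23 and MHC class II. The product of Il21r pairs with the same gamma chain, signals mainly through STAT3, and is known in B cells for promoting plasma cell differentiation and germinal centre responses. The receptor genes lie next to each other on chromosome 7 on the plus strand. In GENCODE M21 (GRCm38) Il4ra (ENSMUSG00000030748) spans 125552120 to 125579474 and Il21r (ENSMUSG00000030745) spans 125603429 to 125633570, with 23.9 kb between them. Batf is on chromosome 12.

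The letters near the starts of the receptor genes were searched because both genes differ between the genotypes and BATF is known to bind DNA as a partner of JUN and IRF proteins. RefSeq promoter windows (GRCm38.p6, 250 bases before to 50 after the start) were found for both genes, and each motif was searched on both strands. Neither window held the AP-1 motif TGANTCA (present in 7.81% of all 32851 windows) or its composite form in which GAAA, an IRF element, directly precedes it (0.12%). Neither held TTC and GAA separated by 4 bases, the spacing bound by STAT6 (6.95%), or TTCNNNGAA, that of other STAT proteins (8.3%). The Il21r window held 1 copy of TGANGTCA, a cAMP-response-element-like motif (8.83% of windows, a set that includes those with the palindrome TGACGTCA), at 176 bases before the start. The Il4ra window held 1 octamer, ATGCAAAT, the site of the POU factors OCT1 and OCT2 (1.74%), at 139 bases before the start. It also held 2 copies of the variant ATGTAAAT (1.34%), at 67 and 34 bases before it. The search for the variant and for TGANGTCA was added after the sequences had been read. The matches are shown as 30-base stretches of the plus strand with the matched motif in capitals.
Il4ra octamer, chr7:125552121-125552150: tggggtggggcATGCAAATaagccagcgat
Il4ra variant, chr7:125552193-125552222: aggggcggggcATGTAAATgaccgtgcacg
Il4ra variant, chr7:125552226-125552255: tggggcgtcgcATGTAAATaagggacacca
Il21r TGANGTCA match, chr7:125603242-125603271: ggcctttgggaTGATGTCAtctgtctgcaa
In each Il4ra stretch the motif is directly preceded by gc and, before that, by bases rich in G. In the stretch at 67 bases before the start, those bases hold a match to the GC box GGGGCGGGG, which began at 77 bases before the start and occurred in 11.45% of all windows. All 3 Il4ra stretches lie inside the first exon of the longest GENCODE transcript of Il4ra, and the Il21r match lies before the start of the GENCODE gene. The positions are descriptions of the reference sequence, and binding was not measured.

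Batf itself, which checks the labels, ran from 307 to 333 CPM (read counts that the authors scaled to a common library total) in wild type and from 63.4 to 70.3 CPM in Batf KO. Effective library sizes, recovered as count divided by CPM, ran from 23675459 to 44728937. Every listed gene had passed the authors' comparison of the same genotypes at a false discovery rate (FDR) of 0.05: 752 of the 19734 genes they tested, or 3.81%, and 1.86% as lower in Batf KO. Both receptor genes therefore had to differ, and the tests below on this contrast describe the size and steadiness of a difference that was a condition of being listed. Wild-type replicates 1 and 2 resembled each other, as did replicates 3 and 4, with a chi-square statistic per degree of freedom of 18.5 and 20.8 within these pairs and 33.3 to 49.8 across them. The Y-linked gene Usp9y had 72 reads in Batf KO replicate 1 and 0 in the other 6 libraries. Values without these libraries are given with the results.

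Il4ra transcripts were lower in Batf KO. Il4ra was measured at 234, 225, 215 and 241 CPM in wild-type replicates 1 to 4, and at 137, 136 and 143 CPM in Batf KO replicates 1 to 3. The groups did not overlap, and 72.8 CPM separated the lowest wild-type library from the highest Batf KO library. The wild-type mean was 229 ± 10.8 CPM (SD, n = 4), and that of Batf KO was 138 ± 3.76 CPM (SD, n = 3), which is 60.5% of the wild-type level. The log2 fold change was -0.72 (SE 0.06), a 1.65-fold decrease, and the adjusted p from edgeR's quasi-likelihood fit was 0.000785. This adjustment runs over all 19734 genes, with those outside the table entered at the highest possible p. The exact two-sided permutation p was 0.0286, the smallest that the 35 assignments of 7 libraries to groups of 3 and 4 allow. The change was -0.73 against wild-type replicates 1 and 2 alone, -0.72 against replicates 3 and 4 alone, and -0.72 without Batf KO replicate 1, and the edgeR test passed in each.

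Il21r transcripts were also lower, by a smaller fold. Il21r stood at 508, 493, 499 and 533 CPM in wild-type replicates 1 to 4 and at 342, 367 and 355 CPM in Batf KO replicates 1 to 3. Here too every Batf KO library lay below every wild-type library, by 125.6 CPM or more. The means were 508 ± 17.5 CPM (SD, n = 4) and 355 ± 12.4 CPM (SD, n = 3), so that 69.8% of the wild-type level remained. The log2 fold change was -0.52 (SE 0.06), a 1.43-fold decrease, with an edgeR adjusted p of 0.00275 and an exact permutation p of 0.0286. It was -0.50 against wild-type replicates 1 and 2 alone, -0.54 against replicates 3 and 4 alone, and -0.49 without Batf KO replicate 1, and the edgeR test passed in each. In bulk RNA, fewer cells that express a gene and less RNA per cell cannot be told apart, which holds for both receptor genes.

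**Figure D1:**
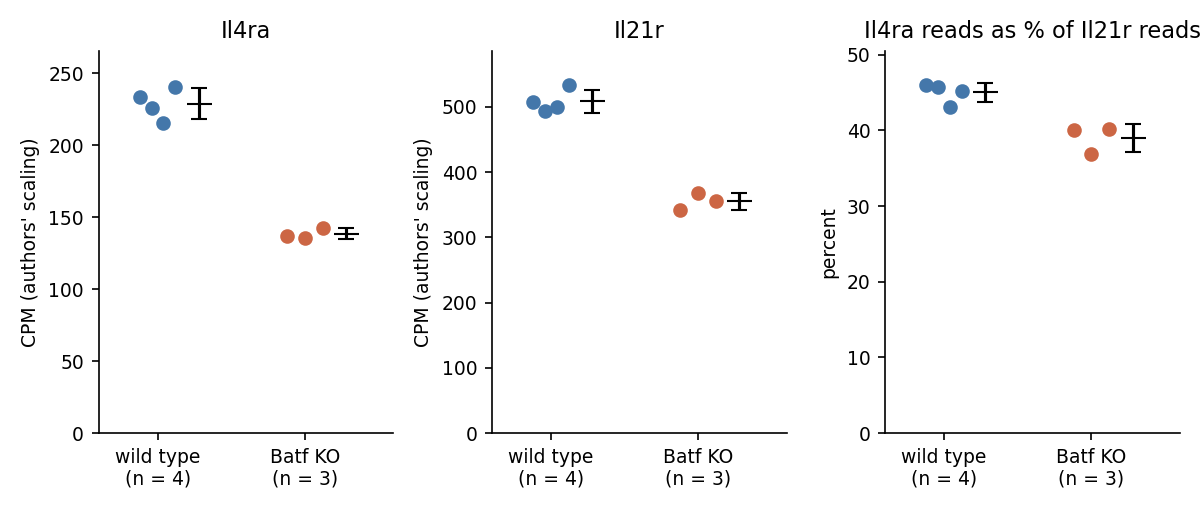
CPM of Il4ra (left) and Il21r (middle), and Il4ra reads as a percent of Il21r reads (right), with 1 point per library and the mean ± SD beside each group; all axes start at 0. In each panel the 3 Batf KO points lie below the 4 wild-type points, and the gap is narrowest for the ratio, at 40.2% against 43.1%.

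Both falls were set against the rest of the table. Of the 667 genes that had a mean of at least 1 CPM and were fitted, 22.8% were lower and passed the same adjustment, and 48.6% were lower with no overlap between the groups. Among the 328 fitted genes that were lower, 145 had a larger fall than Il4ra and 217 a larger fall than Il21r, and the median log2 fold change of the 328 was -0.64. Il4ra thus stood a little above the median fall and Il21r below it. Both were abundant: 58 of the 752 listed genes had a higher wild-type mean CPM than Il4ra, and 10 had a higher one than Il21r. In the authors' deposited table they rank at 68 (Il4ra, FDR 8.04e-13) and 242 (Il21r, FDR 0.000175) by p-value.

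The libraries of each group were close together for both genes. The coefficient of variation of CPM in wild type was 4.72% for Il4ra and 3.44% for Il21r, against a median of 10.5% over the 667 fitted genes. In Batf KO it was 2.72% and 3.50%, against a median of 8.89%. The fitted genes reach down to a mean of 1 CPM, where counting error is larger. The medians are therefore not matched to the abundance of Il4ra and Il21r. Il4ra was carried by 3378 to 9637 reads per library and Il21r by 8408 to 22339. Counting error alone at the lowest of these counts is 1.72% for Il4ra and 1.09% for Il21r, so the spread between mice was larger than counting error in each group. In wild type, replicate 4 had the highest level of both genes.

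The balance between the receptor genes also shifted. The ratio of Il4ra to Il21r reads within a library does not depend on library size, and gene length drops out of the difference of its log between the genotypes. The genes had not been listed for this difference. Il4ra reads amounted to 46.0%, 45.8%, 43.1% and 45.1% of Il21r reads in wild-type replicates 1 to 4 and to 40.0%, 36.9% and 40.2% in Batf KO replicates 1 to 3. The groups did not overlap. The mean ratio was 45.0% ± 1.30 (SD, n = 4) in wild type and 39.0% ± 1.82 (SD, n = 3) in Batf KO, a log2 difference of -0.21 (exact two-sided permutation p = 0.0286, the smallest possible). The fall of Il4ra was therefore larger than that of Il21r in these libraries. With a library left out the difference ran from -0.23 to -0.17, the smallest size without Batf KO replicate 2. An exact test cannot pass at those smaller numbers, where the smallest permutation p is 0.0667 or 0.1.

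Reads of neighbouring or overlapping genes bear on the counts. The antisense gene Gm44876 (125570776 to 125572117) lies within Il4ra, and 571 of its 670 exonic bases fall in Il4ra exons. The labels do not say whether strand was used in counting or whether Gm44876 was in the annotation. How reads over the shared bases were counted is therefore not known. No annotated gene overlaps Il21r. Within 1 Mb of the receptor genes, GENCODE lists 21 other protein-coding genes, and the table holds 1 of them, Nsmce1, a subunit of the SMC5/6 complex of DNA repair. Nsmce1 (125467640 to 125491596, minus strand) lies 60.5 kb from Il4ra, with no protein-coding gene between them. It was measured at 29.8 to 31.1 CPM in wild type and 15.8 to 18.8 CPM in Batf KO. It fell 1.74-fold (log2 fold change -0.80, SE 0.09, edgeR adjusted p = 0.00306), and its groups did not overlap. The listed genes of this stretch were Nsmce1, Il4ra and Il21r, all lower. That 1 of the 21 others was listed stands beside 3.81% of all genes tested by the authors. The rest of the 21 have no value, so a shared change of the stretch was not tested. Kdm8 on the Nsmce1 side and Gtf3c1, 7.38 kb beyond Il21r, have no value here.

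**Figure D2:**
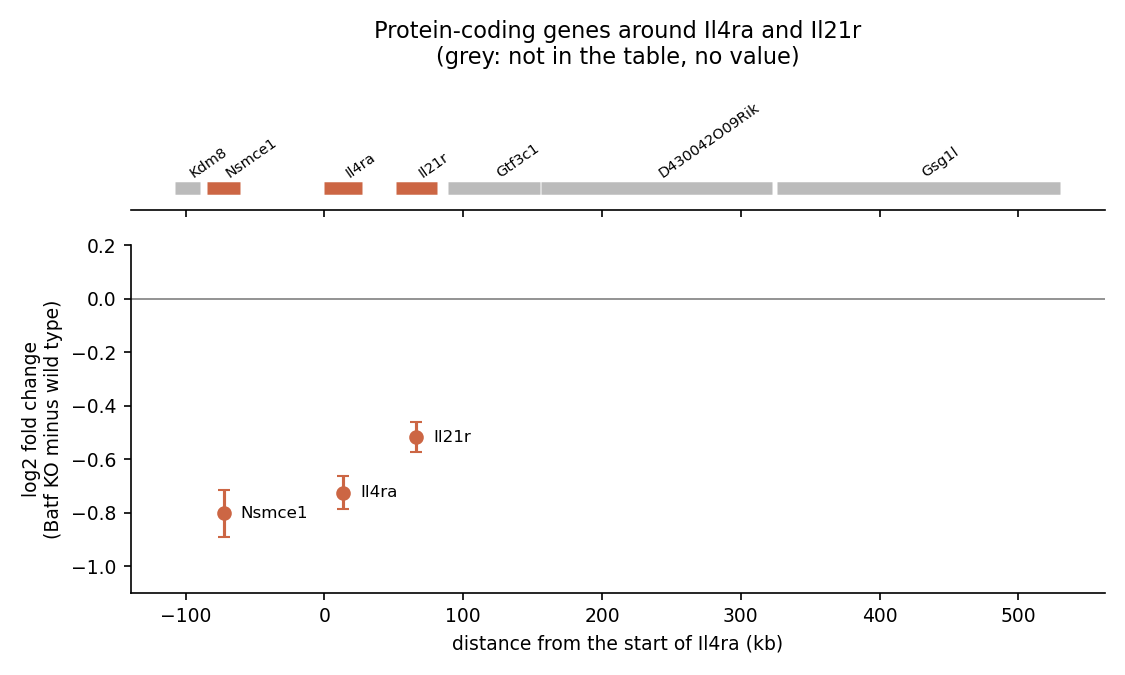
Top: protein-coding genes by distance (kb) from the start of Il4ra, coloured where the table holds them and grey where it does not. Bottom: log2 fold change (Batf KO minus wild type, bars are SE) of the 3 listed genes, which read -0.80 for Nsmce1, -0.72 for Il4ra and -0.52 for Il21r.

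The other listed chains of the same receptor family lay on the opposite side of 0. Of 9 further chains of the IL-4 and common gamma chain family, the table holds 2 (22.2%), and both had higher levels in Batf KO. This share and those of the lists below stand beside 3.81% of the genes tested by the authors, while the lists count every annotated member, tested or not. Il2ra, the alpha chain of the IL-2 receptor, was measured at 485 to 628 CPM in wild type and 703 to 789 CPM in Batf KO. Its log2 fold change was 0.45 (SE 0.09), with an FDR of 0.00738 in the authors' deposited table. By the quasi-likelihood test of edgeR, adjusted over the same 19734 genes, it did not pass (adjusted p = 0.0561). With libraries left out it passed without wild-type replicate 4 (edgeR adjusted p = 0.0235) and against wild-type replicates 1 and 2 alone (0.0244), while against replicates 3 and 4 alone its log2 fold change was 0.34 (0.174). Il9r, the IL-9 receptor chain, was measured at 16.6 to 24.9 CPM in wild type and 28.9 to 36.4 CPM in Batf KO (log2 fold change 0.61, SE 0.15, edgeR adjusted p = 0.130). The gamma chain Il2rg, the alternative IL-4 partner Il13ra1, and Il13ra2, Il2rb, Il7r, Il15ra and Crlf2 were not in the table and have no value here. None of the 8 ligands, among them Il4 and Il21, was listed.

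Levels were compared between the 4 listed chains as CPM per kb of merged exon, using the GENCODE exons of all transcripts. In wild type the order was Il21r at 153 ± 5.27, Il2ra at 95.9 ± 10.7, Il4ra at 38.1 ± 1.80 and Il9r at 4.40 ± 0.77 CPM per kb (SD, n = 4). In Batf KO it was Il2ra at 131 ± 7.54, Il21r at 107 ± 3.74, Il4ra at 23.1 ± 0.63 and Il9r at 6.70 ± 0.78 CPM per kb (SD, n = 3). On this scale Il21r and Il2ra exchanged places: Il21r was above Il2ra in 4 of 4 wild-type libraries and below it in 3 of 3 Batf KO libraries. The exchange rests on the division by exon length, since in CPM Il2ra was already above Il21r in wild-type replicates 2 to 4. No neighbours in either order overlapped between libraries. Per kb, the level of Il21r was 1.46 to 1.80 times that of Il2ra in the wild-type libraries and 0.80 to 0.84 times in the Batf KO libraries. The level of Il4ra was 0.36 to 0.46 times that of Il2ra in wild type and 0.16 to 0.19 times in Batf KO. The log2 ratio differed between the genotypes by -0.97 for Il21r and by -1.18 for Il4ra. Both ratios to Il2ra were chosen after the values had been seen. Il2ra was higher and the receptor genes lower in Batf KO with no overlap between the groups, which fixes the direction of the ratios, so they are given as a description with no test.

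**Figure D3:**
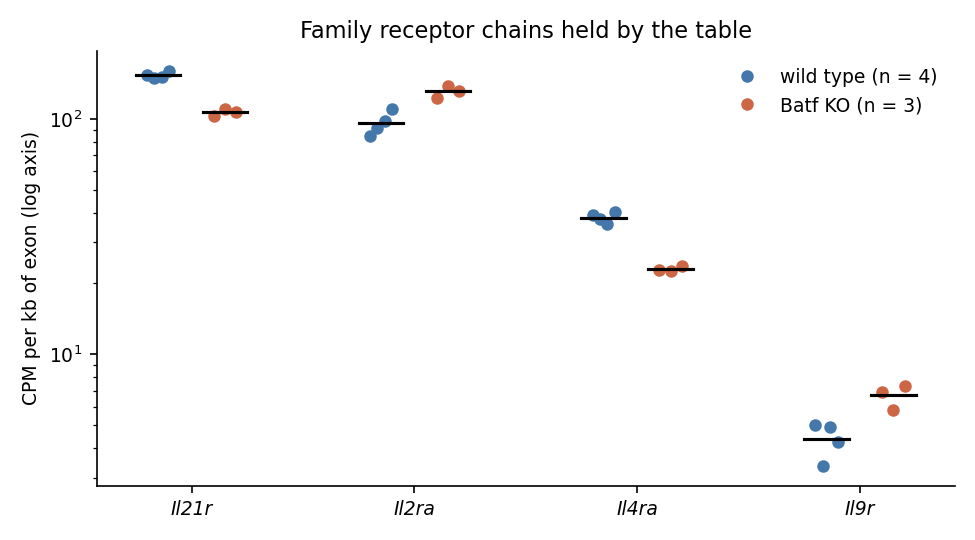
CPM per kb of exon on a log axis for the listed receptor chains of the family, with 1 point per library and a line at each group's mean. Il21r and Il4ra lie lower in Batf KO, Il2ra and Il9r lie higher, and per kb Il2ra passes Il21r in Batf KO.

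Among receptor chains of other cytokines, Csf2rb and Tgfbr2 fell by the edgeR test. Of 33 such genes 8 were listed (24.2%), 5 with higher and 3 with lower levels, and 6 passed the filter on low counts. Of these 6, 2 fell and 0 rose by the edgeR test, beside 22.8% that fell and 20.1% that rose among all fitted genes. Csf2rb, the beta chain shared by the receptors for IL-3, IL-5 and GM-CSF, fell, with a wild-type mean of 27.1 ± 0.89 CPM (SD, n = 4) against 17.0 ± 1.53 CPM in Batf KO (SD, n = 3) and an edgeR adjusted p of 0.00962. It did not pass against wild-type replicates 1 and 2 alone (0.0605) or 3 and 4 alone (0.0568). Its fold of 1.59 is close to that of Il4ra. Csf2rb2, of the same list, was not in the table, and whether it shares reads with Csf2rb was not tested. Tgfbr2, a receptor chain for TGF-beta, fell 1.42-fold (edgeR adjusted p = 0.0136), and its call was lost without any 1 of the Batf KO libraries (adjusted p = 0.0506 to 0.0858). Il12rb1, the IL-12 and IL-23 receptor chain, had 375 reads in wild type and 37 in Batf KO and did not pass (edgeR adjusted p = 0.0706). With libraries left out it passed without wild-type replicate 4 (0.0239) and against wild-type replicates 1 and 2 alone (0.0201). The interferon receptor chains Ifnar1 and Ifnar2 and the IL-10 receptor chain Il10ra had log2 fold changes of 0.36, 0.37 and 0.40 and did not pass (edgeR adjusted p = 0.0843, 0.169 and 0.193). Without wild-type replicate 4, Ifnar1 and Ifnar2 passed (0.0491 and 0.0321). Il1r2, a decoy receptor for IL-1, and Il23r were below the filter. Il1r2 had 83 reads in wild type and 105 in Batf KO, a level 2.17-fold higher in Batf KO (exact 95% counting interval 1.61 to 2.93), and Il23r had 2 and 13 reads (11.1-fold, 2.52 to 102). Counting intervals cover counting error only.

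Downstream of the receptors, the adaptor that IL-4 uses was lower. Irs2, which docks on the phosphorylated IL-4 receptor alpha chain and recruits phosphoinositide 3-kinase, was measured at 15.5 to 18.1 CPM in wild type and 6.48 to 9.65 CPM in Batf KO. It fell 2.20-fold (log2 fold change -1.13, SE 0.15, edgeR adjusted p = 0.00828), a larger fold than that of either receptor gene, although that difference was not tested. Pik3cg, a catalytic subunit of phosphoinositide 3-kinase that is coupled mainly to G protein receptors, fell 4.91-fold, with a wild-type mean of 10.4 ± 2.17 CPM (SD, n = 4) against 2.12 ± 0.26 CPM in Batf KO (SD, n = 3). These were the 2 listed members of 18 adaptor and kinase genes. Of 11 kinases and STATs 1 was listed, Stat5b, which fell 1.25-fold (edgeR adjusted p = 0.0245). Its call was lost when any 1 library other than wild-type replicate 3 was left out (adjusted p = 0.0600 to 0.114). Jak1, Jak3, Stat3 and Stat6 were not in the table.

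Of 17 inhibitors of cytokine signalling 1 was listed, and it was higher. Socs3, a feedback inhibitor induced by STAT3, rose 1.75-fold, with a wild-type mean of 90.3 ± 8.63 CPM (SD, n = 4) against 158 ± 20.5 CPM in Batf KO (SD, n = 3) (log2 fold change 0.81, SE 0.11, edgeR adjusted p = 0.0071). Its levels were 78.6 to 98.5 CPM in wild type and 140 to 180 CPM in Batf KO. Against wild-type replicates 1 and 2 alone, neither Irs2 nor Socs3 passed (edgeR adjusted p = 0.0844 and 0.0586).

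Genes known to respond to IL-4 and STAT6 in B cells differed between the genotypes in both directions. Of 16 such genes 8 were listed (50%), 4 with higher and 4 with lower levels. Every culture had received both IL-4 and LPS, so these levels give the state of the genes and not a response to IL-4. Of the 7 that passed the filter 3 rose and 3 fell by the edgeR test, beside 20.1% that rose and 22.8% that fell among all those fitted. The repressor gene Nfil3, of the basic leucine zipper class, fell 3.31-fold (edgeR adjusted p = 5.4e-06). Egr2, an early growth response factor, fell 3.08-fold, with a wild-type mean of 34.5 ± 7.27 CPM (SD, n = 4) against 11.2 ± 1.86 CPM in Batf KO (SD, n = 3) and an edgeR adjusted p of 0.0049. Ighg1, the constant gene of IgG1, fell 2.09-fold (edgeR adjusted p = 0.0496). Its call was lost when any 1 library other than wild-type replicate 2 was left out (adjusted p = 0.105 to 0.237), and its reads can be shared with other constant genes. The stress response gene Gadd45b rose 1.54-fold, the survival gene Bcl2l1 1.48-fold and the costimulatory gene Cd86 1.49-fold. The call of Cd86 was lost without Batf KO replicate 1 or 2 or wild-type replicate 1, 3 or 4 (edgeR adjusted p = 0.0564 to 0.140). The activation marker gene Cd69 did not pass (log2 fold change 0.41, edgeR adjusted p = 0.0556), but did without wild-type replicate 2 (0.0454).

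Ighe, the constant gene of IgE, was below the filter, with 137 reads over all wild-type libraries and 21 over all Batf KO libraries. This is a 3.81-fold lower level in Batf KO, with an exact 95% counting interval of 2.40 to 6.35, and its reads too can be shared with other constant genes. Fcer2a, which encodes CD23, and the MHC class II genes H2-Aa, H2-Ab1 and H2-Eb1 were not in the table.

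Among genes known to respond to IL-21 and STAT3 in B cells, 3 rose and 1, the targeted gene Batf itself, fell by the edgeR test. IL-21 was not added to these cultures, so the list gives the state of the genes and not a response to that cytokine. Of 11 members 6 were listed (54.5%), 3 with higher and 3 with lower levels. All 6 passed the filter. Among all fitted genes 20.1% rose and 22.8% fell by the edgeR test. Il10 rose 3.54-fold and Irf4 2.18-fold. Bcl6, a repressor of plasma cell differentiation, rose 1.48-fold (edgeR adjusted p = 0.0208), and its call was lost without any 1 of the Batf KO libraries or wild-type replicate 3 (0.0646 to 0.121). Prdm1, which encodes the plasma cell factor BLIMP-1, did not pass (log2 fold change -0.73, edgeR adjusted p = 0.276), but did against wild-type replicates 3 and 4 alone (0.0359). Tbx21, a T-box factor, had a log2 fold change of -3.55 (SE 0.80) and an FDR of 1.15e-06 in the authors' deposited table. By the edgeR test Tbx21 did not pass either (adjusted p = 0.0880). It passed without wild-type replicate 2 (0.0356), without replicate 4 (0.0496) and against replicates 3 and 4 alone (0.0482).

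**Figure D4:**
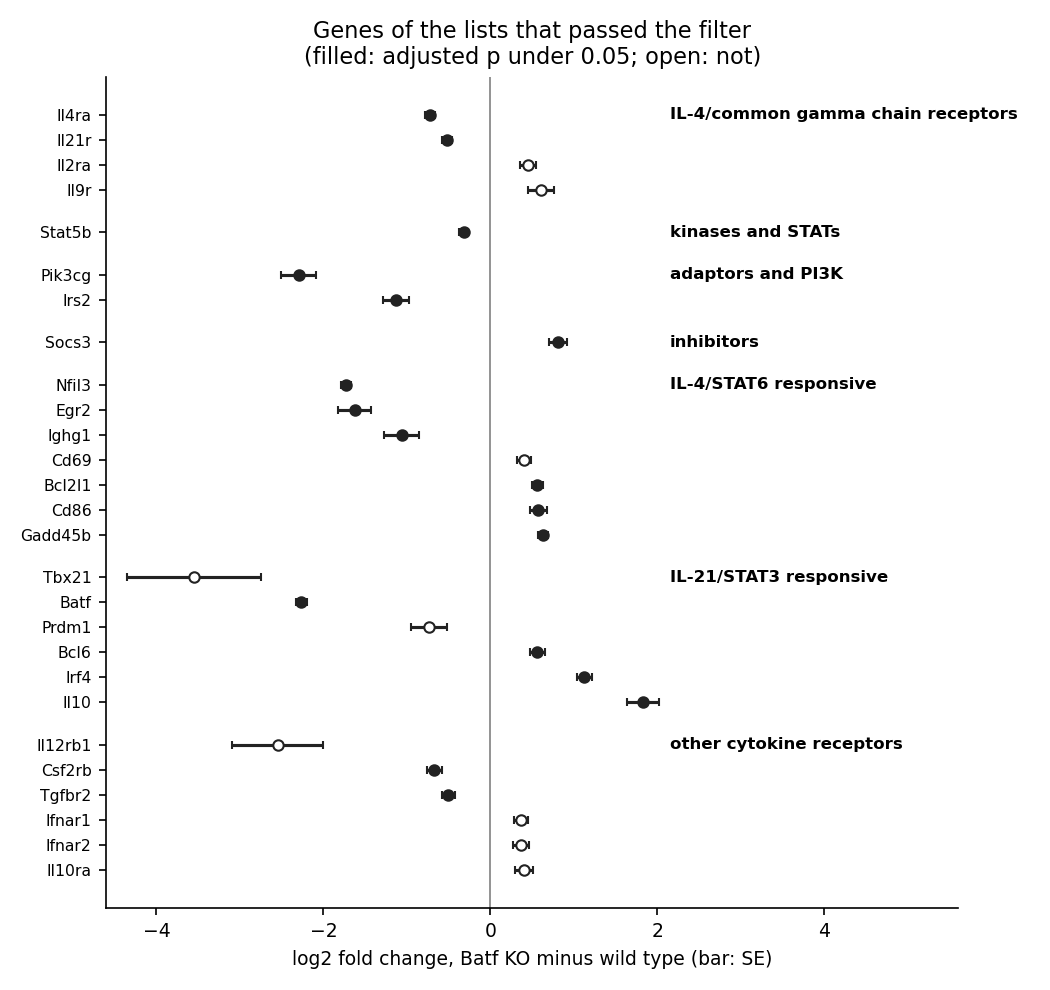
Log2 fold change (Batf KO minus wild type) with its SE for each gene of the lists that passed the filter of 1 CPM, grouped by role. Filled points passed the edgeR adjustment over all 19734 genes and open points did not. Points lie on both sides of 0 in 4 of the 7 groups shown.

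Over all lists, without Il4ra and Il21r, 28 of 123 genes (22.8%) were in the table, beside 3.81% of all genes tested by the authors. The lists were chosen with earlier results of these data known, so the gap between these shares is not evidence about the pathway. Of the 25 that passed the filter, 9 fell, Batf itself among them, and 7 rose, beside 152 that fell and 134 that rose among all 667 fitted genes (22.8% and 20.1%). The median log2 fold change of the 25 was 0.36 and that of the 667 was 0.30. Listed genes had to differ, so few values lie near 0, and nearly as many genes had lower as higher levels. Each median therefore sits among the smallest increases and does not give a general shift. Without Batf, 8 of the 24 fell. Against wild-type replicates 1 and 2 alone, 5 fell, Batf among them, and the calls of Stat5b, Irs2, Socs3, Ighg1, Cd86, Bcl6, Csf2rb and Tgfbr2 were lost (edgeR adjusted p = 0.0586 to 0.272). Against replicates 3 and 4 alone those of Stat5b, Cd86 and Csf2rb were lost (0.0509 to 0.119).

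The genes whose levels followed the receptor genes most closely over the 7 libraries were found by Pearson's r of log2(CPM + 0.5). All fitted genes share these libraries and were listed for a difference between the genotypes, so a high r is common: 116 of the fitted genes had an r above 0.95 with Il4ra and 128 with Il21r. For Il4ra the closest were the microtubule-binding protein gene Mapre2 (r = 0.998), Pik3cg (0.996), the lymphocyte GTPase gene Gimap3 (0.995), whose reads can be shared with close copies, Dennd5b (0.993) and Plekho1 (0.992). For Il21r they were Dennd5b (0.998), AI504432 (0.997), the zinc finger repressor gene Zeb2 (0.992), Mapre2 (0.992) and E330009J07Rik (0.992). Mapre2 and Dennd5b were in both sets. The r between Il4ra and Il21r was 0.989, which put Il21r at rank 11 for Il4ra and Il4ra at rank 9 for Il21r. Mapre2 fell 2.64-fold, with a wild-type mean of 77.6 ± 3.52 CPM (SD, n = 4) against 29.4 ± 1.42 CPM in Batf KO (SD, n = 3), a larger fold than either receptor gene (the difference was not tested). Dennd5b fell 1.43-fold, like Il21r, but its edgeR call (adjusted p = 0.0487) was lost whichever library was left out (0.101 to 0.200).

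Markers of the labelled cells and of other spleen cells were examined in the same table. Of 7 B cell markers 2 were listed, and both had abundant reads: Ms4a1, which encodes CD20, at 533 to 613 CPM in wild type and 832 to 905 CPM in Batf KO, and the adaptor gene Blnk at 159 to 168 and 189 to 221 CPM. Of 8 T cell markers, a cell type that also expresses both receptor genes, 1 was listed: Cd8b1, at 1.48 to 2.59 CPM in wild type and 5.24 to 7.42 CPM in Batf KO. The other T cell markers have no value here, so this 1 gene does not give the level of T cells. None of 4 NK cell and 6 myeloid markers was listed. The platelet gene Pf4, 1 of 4 erythroid and platelet markers, had 60 reads in wild type and 77 in Batf KO, and Prdm1 was the listed plasma cell marker of 3. Levels of the markers outside the table have no value here, and the part of other cells in the fall of Il4ra and Il21r was not tested.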

How the data were processed

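Per the submitters' processing notes, TopHat2 2.0.6, HTSeq 0.5.3p7, edgeR 3.03 and the build mm10 were used, without their roles. The gene annotation and strand setting used in counting are not stated there. The deposited table gives read counts per gene and library and the CPM the authors computed from them, per the file headers. It also holds the authors' log2 fold change, log2 mean CPM, likelihood ratio (a score), p-value and FDR, per the file headers. The highest FDR is 0.0499, and the ratio of FDR to p-value gave 19734 genes tested. No library was a second copy of another (chi-square per degree of freedom at least 16.6 within a group).

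Counts of the 667 genes whose CPM averaged 1 or more were fitted in edgeR 4.0.16 (R 4.3.3) by its quasi-likelihood method, two-sided, with the authors' effective library sizes. The SE is the size of the log2 fold change divided by the square root of F. Adjusted p-values are Benjamini-Hochberg values over all 19734 genes, with unlisted genes entered at the highest possible p. Exact permutation tests used the absolute difference of means. Alternatives used DESeq2 1.42.0 and limma 3.58.1 with a pseudocount of 0.5 CPM. Positions are from GENCODE M21 (GRCm38, also called mm10), which held 742 of the 752 identifiers. Promoter sequences are from RefSeq (GRCm38.p6), which held both genes.

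Named genes are Il4ra, Il21r, each gene of 8 lists (125 genes) that the table holds, the 5 genes most like each receptor gene, and listed genes within 1 Mb. The members and lists were chosen with earlier results of these data known, and 1 gene is not reported here. The design text says that samples have 2 replicates, which is not explained further, and each library was taken as 1 mouse. Replicate numbers only name samples.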

Additional observations from a re-analysis of the deposited data

Results flagged for a closer look

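Dixon's criterion at 95% was applied to the wild-type values of 38 named genes, comparing the distance of the most extreme library from its neighbour with the spread of all 4. Chance flags about 1 in 20, or 1.9 genes here, and 1 was found. Cd86 read 217 CPM in wild-type replicate 3, while replicates 1, 2 and 4 read 255 to 260 CPM. Neither Il4ra nor Il21r had such a library. Groups of 3 are too small for the criterion.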

How the results depend on the processing

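The fall of Il4ra and of Il21r kept its direction and passed under all 15 alternatives run. The log2 fold change ran from -0.77 to -0.70 for Il4ra (highest adjusted p 0.0101) and from -0.56 to -0.49 for Il21r (highest adjusted p 0.0232). When each library was left out in turn, the range was -0.75 to -0.70 and -0.54 to -0.49. TMM scaling over the table moved the median of all fitted genes by -0.04. Both genes had been listed for this difference, so this is not independent evidence. The difference in the ratio of Il4ra to Il21r was -0.20 from CPM + 0.5, -0.23 and -0.18 against each pair of wild-type libraries, and from -0.23 up to -0.17 when each library was left out. The ratio of Il4ra to Il2ra differed by -1.22 to -1.11 and that of Il21r to Il2ra by -1.02 to -0.92 with a library left out, alternatives chosen after seeing the data. Of the listed genes of the lists, 9 fell, Batf among them, and 7 rose. Those that fell became 11 with DESeq2 and 12 when adjusted over the fitted genes alone. They became 5 against wild-type replicates 1 and 2 alone, with fewer samples by construction, and 6 to 9 with a library left out. Those that rose became 12 with DESeq2, whose cause was not tested, 13 when adjusted over the fitted genes alone, which adjusts over fewer genes by construction, and 5 to 9 with a library left out. Of 33 other named genes none reversed, and of the 24 that passed 6 lost their call when a library was left out. No paired analysis was possible because no mouse number occurs in both genotypes. Depth limits what can be said of Ighe, with 21 reads in Batf KO, and of Il23r, with 13.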
